A study of Mus musculus with 6 samples.

Results

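The Wnt ligands, their receptors, their inhibitors and the effectors of beta-catenin were represented on the array by 60 probes for 54 genes, out of 21766 probes for 15063 named genes in all. They were taken by gene symbol from the platform's probe annotation, whatever their values. Ligands and the genes that assist them had 23 probes, receptors 11, inhibitors 18 (13 genes) and effectors 8 (7 genes). In all 58 of the 60 probes (52 genes) had enough values for a test. The probes of Wnt1 and Nkd1 did not, and 1 further probe that names Wnt2 beside other genes was left out.

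The study compared RNA of the embryonic mouse cortex with and without a working paternal copy of Mest, also called Peg1. The mutants were E12.5 embryos that had inherited from the father a Mest allele targeted with LacZ and without its exons 3 to 8. Mest is an imprinted gene that is active on the paternal copy. RNA from a single mutant cortex was hybridised on each of 6 two-colour arrays against RNA from a single E12.5 wild-type cortex. The mutant carried Cy5 on 3 arrays (mutants 3, 5 and 6) and Cy3 on the other 3 (mutants 1, 4 and 7). The 3 wild-type cortices of the design text (2, 8 and 9) served on 2 arrays each, with mutants 3 and 1, 5 and 4, and 6 and 7, if the wild type labelled 1 on the array of mutant 3 is read as wild type 2. All cells of a mutant embryo carried the allele, and each embryo gave 1 sample. Strain and sex are not given in the labels.

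Wnt proteins are secreted, lipid-modified ligands that bind Frizzled receptors together with the co-receptors Lrp5 and Lrp6. Binding recruits Dishevelled and holds back the destruction complex of Axin, Apc and Gsk3b, so that beta-catenin accumulates and activates genes together with the Tcf and Lef factors. In the embryonic telencephalon the cortical hem, a strip of tissue at the medial edge of the cortex, is a source of Wnt ligands for the hippocampal field, and beta-catenin signalling acts on cortical progenitors. Mest has been linked in cultured cells to the maturation of Lrp6. The arrays measured RNA, so they do not show that step.

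Every value below is a log2 ratio, mutant over wild type, on arrays whose probe medians were set to 0, or a difference of such ratios. The fitted ratio of a probe comes from a linear model over the arrays with a dye term (limma), and p-values were adjusted over all 17476 tested probes. The log2 scale of the deposited ratios is not stated and was assumed. Their direction was read from Mest and not from a stated convention. Mest was lower in every mutant, with -1.36, -1.78 and -1.39 with the mutant in Cy5 and -1.50, -2.07 and -1.44 in Cy3. Its fitted ratio of -1.59 had the smallest p of all probes, and even that gave an adjusted p of 0.60 (limma, lower on 6 of 6 arrays). Between 16422 and 19564 probes had a value on an array. The arrays give no level, so a ratio near 0 can come from a transcript present alike in both cortices or from one that neither expresses, and the label of the tissue could not be checked by level. Of 8 genes listed as markers of the dorsal telencephalon 7 had a tested probe, with a median fitted ratio of -0.013. Markers of red blood cells had a median of -0.24 (1 above and 4 below 0) and those of the choroid plexus -0.14 (1 above and 3 below 0), and their part in the results was not tested. Nor can fewer cells of a type be told apart from less RNA per cell.

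To show what lies at the start of the members that the results turn on, the RefSeq promoter windows of GRCm38.p6 are given for Tcf7l2, whose probes gave the largest ratios with the same sign on every array, for Dkk2, whose centred ratio varied least, and for Axin2, a standard feedback target of beta-catenin. Each window runs from 250 bases before a transcript start to 50 after it. Capitals mark the core letters bound by Tcf and Lef factors, searched on both strands as CTTTGAT, as the variant CTTTGAA, and as the further variant CTTTGTT.
Tcf7l2, first listed start (chr19:55741560-55741859, + strand): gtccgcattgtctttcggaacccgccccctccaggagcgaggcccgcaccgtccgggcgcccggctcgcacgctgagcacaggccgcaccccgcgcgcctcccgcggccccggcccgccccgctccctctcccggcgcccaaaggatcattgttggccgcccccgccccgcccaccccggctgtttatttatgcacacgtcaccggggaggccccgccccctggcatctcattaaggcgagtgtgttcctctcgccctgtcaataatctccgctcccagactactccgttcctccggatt
Tcf7l2, second listed start (chr19:55895071-55895370, + strand): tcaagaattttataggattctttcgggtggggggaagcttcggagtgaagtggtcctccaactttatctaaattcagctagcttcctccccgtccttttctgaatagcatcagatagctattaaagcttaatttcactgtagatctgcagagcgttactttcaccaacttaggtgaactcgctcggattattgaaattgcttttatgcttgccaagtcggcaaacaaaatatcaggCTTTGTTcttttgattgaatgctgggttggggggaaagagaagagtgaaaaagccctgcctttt
Dkk2 (chr3:132085042-132085341, + strand): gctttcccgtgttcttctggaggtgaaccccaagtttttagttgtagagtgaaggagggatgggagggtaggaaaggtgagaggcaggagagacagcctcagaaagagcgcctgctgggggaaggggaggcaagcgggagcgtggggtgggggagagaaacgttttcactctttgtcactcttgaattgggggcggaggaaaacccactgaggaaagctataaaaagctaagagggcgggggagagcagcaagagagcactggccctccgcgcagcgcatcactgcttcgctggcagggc
Axin2 (chr11:108920099-108920398, + strand): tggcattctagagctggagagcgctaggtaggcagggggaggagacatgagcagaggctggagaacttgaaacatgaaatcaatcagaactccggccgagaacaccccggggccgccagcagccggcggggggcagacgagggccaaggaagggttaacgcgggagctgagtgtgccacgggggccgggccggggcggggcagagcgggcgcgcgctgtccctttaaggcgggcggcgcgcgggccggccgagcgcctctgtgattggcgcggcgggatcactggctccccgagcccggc
The second Tcf7l2 window held 1 match (CTTTGTT) and the other 3 windows held none. Of the 44 windows of 36 member genes, 6 (13.6%) held at least 1 of the 3 motifs, against 13.9% of all 32851 windows. The member windows were rich in G and C, with a median of 67.3% against 52.7% for all windows. These matches are a description of the letters and show no binding.

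No member passed an adjusted p of 0.05 for genotype, and neither did any other probe (0 of 17476, 0%). The smallest adjusted p among members was 0.90 (limma). At an unadjusted p under 0.05 there were 3 of 58 member probes, 5.17%, against 3.93% of all probes. The 3 were both probes of Tcf7l2 and the probe of Fzd3, and all lay above 0. For higher ratios alone the share of all probes was 1.6%, and for lower ratios it was 2.33%.

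Fitted ratios lay above 0 for 36 of the 58 probes, 62.1%, where 51.3% of all probes did. By gene, 31 lay above and 21 below, with a median of 0.064 over the 52 member genes and 0.0013 over all 12576 tested genes. The split depended on the centring: with arrays not centred, or centred on the Gapdh control spots, 43 member genes lay above and 9 below (82.7% above, against 85.6% of all genes), while the median of all genes moved to 0.25 and 0.26. Among the 33 named and tested member probes the fitted ratio changed sign for 5 with no centring (Wnt2b, Wnt3a, Wnt7a, Dvl2 and the first of Gsk3b) and for 6 on Gapdh control spots (Wnt2b, Wnt3a, Wnt7a, Wnt8a, Lrp5 and the first of Gsk3b). The array medians of the members spread on both sides of 0, at 0.11, -0.072 and 0.057 on the Cy5 arrays and 0.0035, -0.056 and -0.011 on the Cy3 arrays. The typical member probe had an SD of 0.37 over arrays, against 0.41 for all probes.

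**Figure D1:**
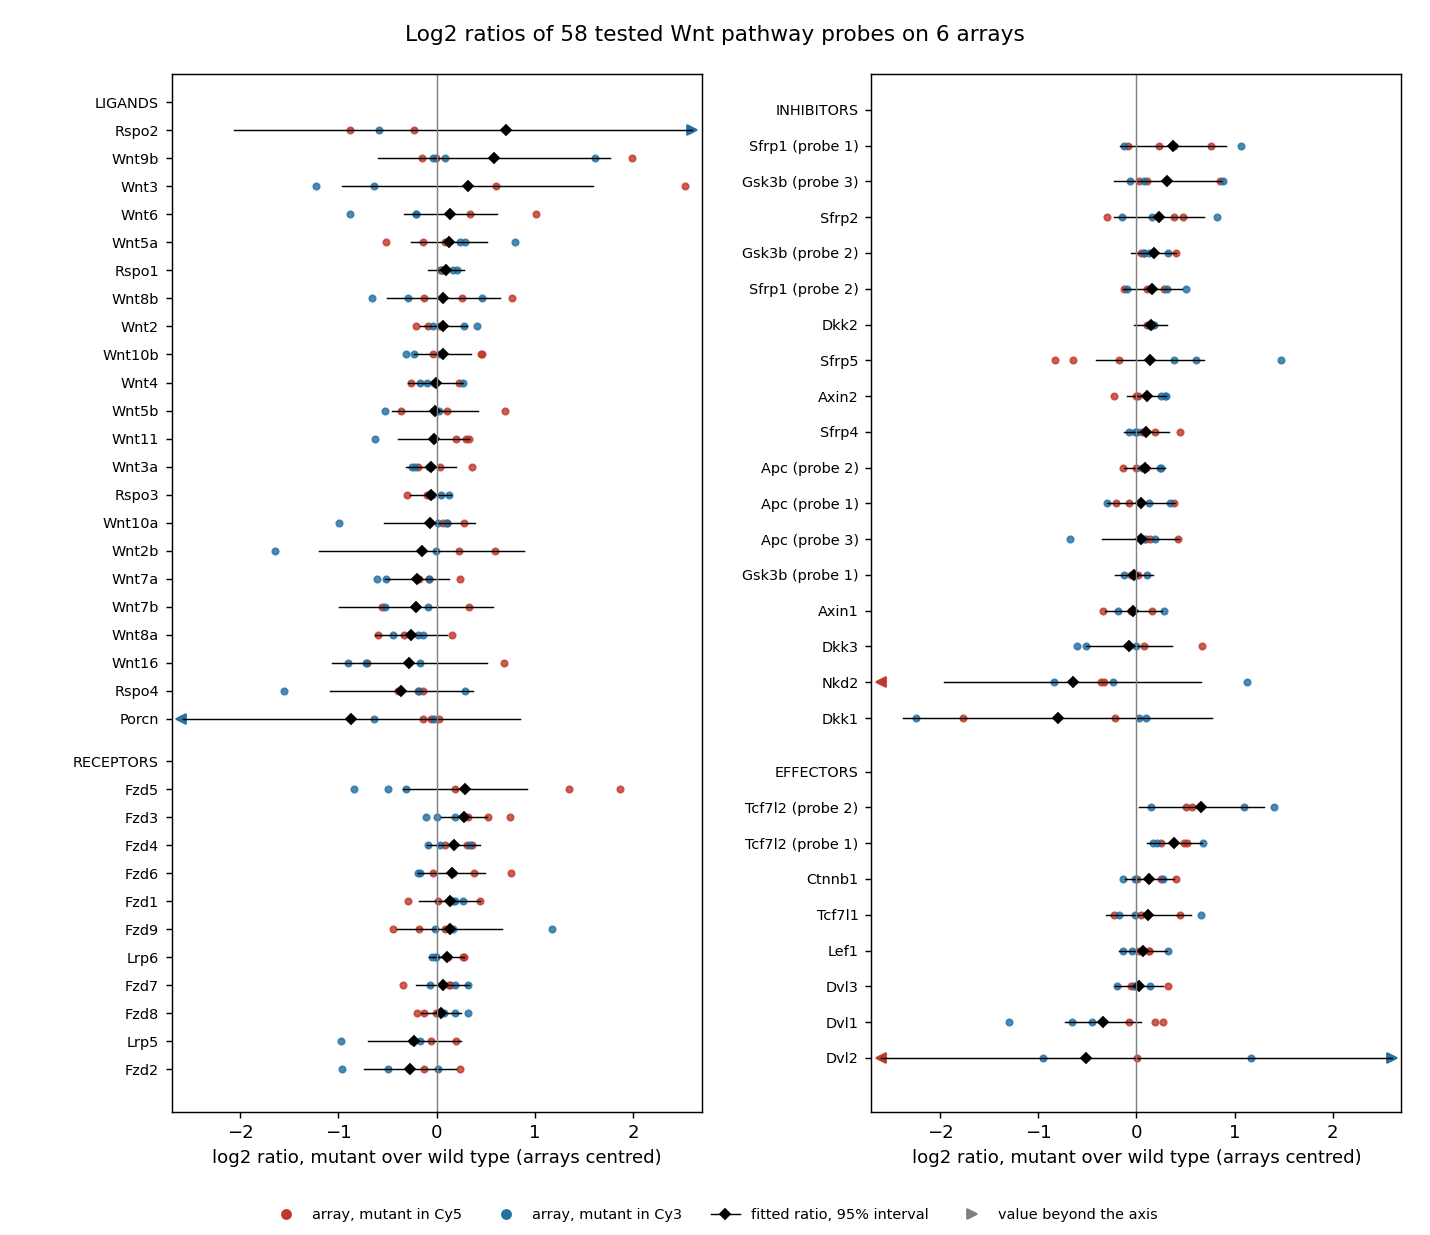
Log2 ratio of mutant over wild type (x axis) for each of the 58 tested probes (y axis), grouped by role and sorted by fitted ratio. Coloured points are single arrays, diamonds with bars are fitted ratios with 95% intervals, and arrowheads are values beyond the axis. The intervals of 3 probes, both of Tcf7l2 and that of Fzd3, lie above 0.

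Among the ligands and their helpers (22 genes tested), 9 lay above and 13 below 0, with a median of -0.023. The 17 Wnt ligands alone had 7 above and 10 below, and a median of -0.013. Rspo1, a secreted R-spondin that keeps Frizzled receptors at the cell surface, was the ligand with the same sign on every array. It had 0.032, 0.059 and 0.05 on the Cy5 arrays and 0.054, 0.17 and 0.21 on the Cy3 arrays. The values were all small and above 0, and the fitted ratio was 0.10 (standard error 0.071), with an unadjusted p of 0.235 and an adjusted p of 0.90 (limma).

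Wnt8a, a ligand of early axis formation, lay below 0 on 5 of 6 arrays, with -0.33, -0.59 and 0.16 in Cy5 and -0.19, -0.14 and -0.45 in Cy3. Its fitted ratio was -0.26 (standard error 0.15), and the 95% interval of -0.62 to 0.11 held 0. Wnt7a, a ligand of the ventricular zone where cortical progenitors divide, also lay below 0 on 5 of 6 arrays, with -0.18, 0.24 and -0.081 in Cy5 and -0.073, -0.52 and -0.61 in Cy3. Mutant 5 was the array above 0, and the fitted ratio was -0.20 (standard error 0.13). The sides of 0 of these ligands depended on the centring. With no centring and on Gapdh control spots the fitted ratio was 0.049 and 0.058 for Wnt7a, and -0.0057 and 0.0028 for Wnt8a. Wnt7b, described in the same zone and at the hem, had -0.56 and 0.33 on 2 Cy5 arrays and -0.088 and -0.52 on 2 Cy3 arrays.

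The ligands described at the cortical hem showed no common direction. Of 6 such genes 5 had a tested probe, 2 above and 3 below 0, with a median of -0.058. Wnt3a, which is needed for the hippocampus to form in the mouse, had 0.039, -0.19 and 0.36 in Cy5 and -0.23, -0.26 and -0.074 in Cy3, on both sides of 0. The interval of its fitted ratio, -0.058, ran from -0.32 to 0.20. Wnt8b had 0.76, -0.13 and 0.26 in Cy5 and -0.66, -0.30 and 0.46 in Cy3, a wider spread with a fitted ratio of 0.067. Wnt2b had values on 4 arrays, 0.60 and 0.22 in Cy5 and -0.007 and -1.65 in Cy3. Wnt5a, a ligand that often acts without beta-catenin, had 0.087, -0.13 and -0.52 in Cy5 and 0.28, 0.23 and 0.80 in Cy3, so that every Cy3 array lay above every Cy5 array. Other genes of the hem were mixed as well, with 4 of 6 markers above 0 and a median of 0.066, from -0.69 for Bmp6 to 0.24 for Msx2.

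Single arrays set the fitted ratio of several ligand genes. Porcn, the acyltransferase that adds the lipid to Wnt proteins, had 0.028, -0.13 and -0.053 in Cy5 and -0.022, -0.64 and -4.39 in Cy3. Mutant 7 stood apart, and without it the fitted ratio was -0.19 in place of -0.87. Rspo2, another R-spondin, had the widest range of the ligands on 4 arrays, -0.23 and -0.88 in Cy5 and -0.59 and 3.94 in Cy3. Mutant 7 again stood apart, here above the rest, and the fitted ratio was -0.50 without it and 0.70 with it. The 12 other tested ligand genes (Rspo3, Rspo4, Wnt2, Wnt3, Wnt4, Wnt5b, Wnt6, Wnt9b, Wnt10a, Wnt10b, Wnt11 and Wnt16) had fitted ratios from -0.36 for Rspo4 to 0.58 for Wnt9b, 5 above and 7 below 0. Wnt1, not tested, had -1.09 on 1 Cy5 array and 0.36, -0.24 and 0.28 in Cy3.

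Receptor genes lay mostly above 0, 9 of 11, with a median of 0.13, but none passed. The median of the receptors was 0.12, 0.29 and 0.087 on the Cy5 arrays and -0.001, -0.004 and -0.011 on the Cy3 arrays. The median of all tested genes was split by orientation too, at 0.011, 0.049 and 0.014 in Cy5 and -0.022, -0.012 and -0.038 in Cy3, and the receptor median lay above it on all 6 arrays. The 9 Frizzled genes alone had a median above 0 on all 6 arrays, with 0.12, 0.31 and 0.087 in Cy5 and 0.009, 0.17 and 0.07 in Cy3. Fzd3, a Frizzled needed for the growth of major axon tracts in the mouse forebrain, had the smallest p of the receptors. It gave 0.53, 0.74 and 0.32 in Cy5 and -0.001, 0.18 and -0.10 in Cy3, above 0 on 4 of 6 arrays and with no overlap between the orientations. The fitted ratio was 0.28 (standard error 0.094), or 1.21-fold, with an unadjusted p of 0.0283 and an adjusted p of 0.90 (limma). Flipping the signs of its 6 values in every way, an exact two-sided permutation test, gave p = 0.125. The arrays share wild-type cortices, so that p is a lower limit.

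The co-receptor genes did not share a direction. Lrp6, the co-receptor to which Mest has been linked, had 0.12, 0.28 and 0.27 in Cy5 and -0.049, -0.004 and -0.011 in Cy3. Its Cy5 values were above 0 and its Cy3 values just below, and the interval of the fitted ratio of 0.10 ran from -0.082 to 0.28. The fitted ratio of Lrp6 lay above that interval under the other centrings, at 0.35 with no centring and 0.36 on Gapdh control spots (limma, adjusted p = 0.79 and 0.30), where the median of all genes was 0.25 and 0.26. Lrp5 had 0.20 and -0.056 on 2 Cy5 arrays and -0.25, -0.97 and -0.17 in Cy3, with a fitted ratio of -0.23 (standard error 0.18).

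Fzd4, a Frizzled best known from blood vessels, had 0.36, 0.31 and 0.087 in Cy5 and 0.037, -0.087 and 0.34 in Cy3, above 0 on 5 of 6 arrays. Fzd2 had -0.28, -0.13 and 0.23 in Cy5 and 0.009, -0.50 and -0.97 in Cy3, on both sides of 0, and its fitted ratio of -0.27 was -0.021 with no centring and -0.012 on Gapdh control spots. Fzd5, known for its part in eye development, had the widest range of the receptors, with 1.35, 1.86 and 0.18 in Cy5 and -0.50, -0.32 and -0.84 in Cy3. All Cy5 values of Fzd5 were above 0 and all Cy3 values below. The other 5 Frizzled genes (Fzd1, Fzd6, Fzd7, Fzd8 and Fzd9) had fitted ratios from 0.041 to 0.15.

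Among the inhibitors (12 genes tested), 8 lay above and 4 below 0, with a median of 0.10. The Sfrp genes among the members encode secreted frizzled-related proteins, decoys that bind Wnt proteins outside the cell. All 4 genes were above 0 by their fitted ratios (median 0.18), and none passed. Their array medians lay on both sides of 0, with 0.22, -0.14 and 0.18 in Cy5 and 0.25, -0.0905 and 0.80 in Cy3. Frzb, a frizzled-related gene outside the members, had a fitted ratio of -0.036. Sfrp1, expressed by cortical progenitors, was measured by 2 probes. The first had 0.76, -0.09 and 0.23 in Cy5 and 0.38, -0.12 and 1.07 in Cy3, and the second had 0.28, -0.13 and 0.11 in Cy5 and 0.31, -0.10 and 0.51 in Cy3. Both probes had the same arrays below 0, those of mutants 5 and 4, and their fitted ratios were 0.37 (standard error 0.22) and 0.16 (standard error 0.12). Sfrp4 had a fitted ratio of 0.10 and Sfrp5 one of 0.14. In both the dye orientations did not overlap, with the Cy5 arrays higher in Sfrp4 and lower in Sfrp5.

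Dkk2, of the Dickkopf family that binds Lrp5 and Lrp6, had nearly the same centred ratio on every array, with 0.11, 0.13 and 0.15 in Cy5 and 0.13, 0.18 and 0.17 in Cy3. Its SD of 0.027 (n = 6) was the second smallest of the 13531 probes with 6 values. This held with arrays centred on their medians: its values ran from -0.11 to 0.89 with no centring and from 0.18 to 0.61 on Gapdh control spots, and the fitted ratio was then 0.40 and 0.41. The fitted ratio was 0.14 (standard error 0.068), or 1.11-fold, and the variance moderation of the fit, which draws small SDs towards those of other probes, left an unadjusted p of 0.0848 (limma, adjusted p = 0.90). Dkk1 went the other way on 3 of 5 arrays, with -1.77 and -0.22 on 2 Cy5 arrays and 0.10, 0.032 and -2.24 in Cy3. Mutants 3 and 7 were far below 0 and the other 3 nearer to it. Dkk3 had a fitted ratio of -0.073.

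In the destruction complex, the kinase gene Gsk3b had 3 probes that did not give 1 answer. The first had -0.046, 0.02 and -0.058 in Cy5 and 0.11, -0.027 and -0.13 in Cy3. The second had 0.078, 0.41 and 0.046 in Cy5 and 0.074, 0.32 and 0.13 in Cy3, above 0 on all 6 arrays. The third had 0.86, 0.11 and 0.028 in Cy5 and 0.077, -0.061 and 0.88 in Cy3, with mutants 3 and 7 high. Their fitted ratios were -0.022, 0.18 and 0.32, with unadjusted p of 0.786, 0.107 and 0.203. The 3 probes of Apc, the scaffold lost in many colon tumours, had fitted ratios of 0.045, 0.085 and 0.043, each with values on both sides of 0, and Axin1 had -0.03.

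The feedback targets of beta-catenin gave no common change. Axin2, a scaffold that beta-catenin itself induces, had -0.005, 0.019 and -0.23 in Cy5 and 0.26, 0.30 and 0.30 in Cy3. The Cy3 arrays were all above the Cy5 arrays, and the fitted ratio was 0.11 (standard error 0.079). The Tcf family gene Lef1, needed with Wnt3a for the hippocampus in the mouse, had 0.13, 0.025 and 0.13 in Cy5 and -0.13, -0.045 and 0.32 in Cy3, 4 of 6 above 0, with a fitted ratio of 0.071 (standard error 0.10). Nkd1, an inhibitor that binds Dishevelled, was not tested. Its deposited value for mutant 5 was the ceiling of the file (16.61), and it had 0.35 on 1 Cy5 array and -2.70, -0.73 and 0.071 in Cy3. Nkd2 had -3.26, -0.36 and -0.33 in Cy5 and -0.83, -0.24 and 1.13 in Cy3, the widest range of the inhibitors, with a fitted ratio of -0.65. Mutant 3 was far below the rest, and without it the fitted ratio was -0.23.

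The effectors (7 genes tested) had 5 above and 2 below 0, with a median of 0.071. The gene with the smallest p of all members was Tcf7l2, a transcription factor that recruits beta-catenin to its target genes and is best known in the embryonic brain from the thalamus and its neighbours. Its first probe had 0.52, 0.25 and 0.48 in Cy5 and 0.21, 0.17 and 0.68 in Cy3. The second probe had 0.56 and 0.51 on 2 Cy5 arrays and 0.15, 1.09 and 1.40 in Cy3. All 11 values lay above 0, and the orientations overlapped for both probes.

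The fitted ratio of the first Tcf7l2 probe was 0.39 (standard error 0.11), with a 95% interval of 0.11 to 0.66, or 1.31-fold. That of the second was 0.66 (standard error 0.24), with an interval of 0.027 to 1.30, or 1.58-fold. The unadjusted p-values were 0.0155 and 0.0441, and both adjusted p-values were 0.90 (limma, above 0 on 6 of 6 and 5 of 5 arrays). Exact sign-flip permutation tests gave two-sided p of 0.0313 and 0.0625, the smallest that 6 and 5 arrays allow. Over 3 independent wild types the smallest would be 0.25. Both probes stayed above 0 on every array with no centring, from 0.22 to 1.01 and from 0.15 to 1.68.

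Because Tcf7l2 is a gene of the neighbouring diencephalon, the markers listed for that tissue are given beside it. Of 6 markers 5 had a tested probe (Gbx2, Irx3, Rax, Six3 and Olig3), and all 5 fitted ratios lay above 0, from 0.019 to 0.76. The mean of the markers with a value was 0.66, 2.30 and 0.26 on the Cy5 arrays and -0.26, -0.14 and -0.46 on the Cy3 arrays. Gbx2 had no value for mutants 5 and 7 and Olig3 had none for mutant 5, so the means cover different markers. The mean of 2.30, on the array of mutant 5, held 5.27 for Rax. The markers did not move together: Six3 had 0.17, -0.098 and -0.26 in Cy5 and 0.34, 0.18 and 0.17 in Cy3, above 0 on every Cy3 array. Their part in the Tcf7l2 ratio was not tested.

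**Figure D2:**
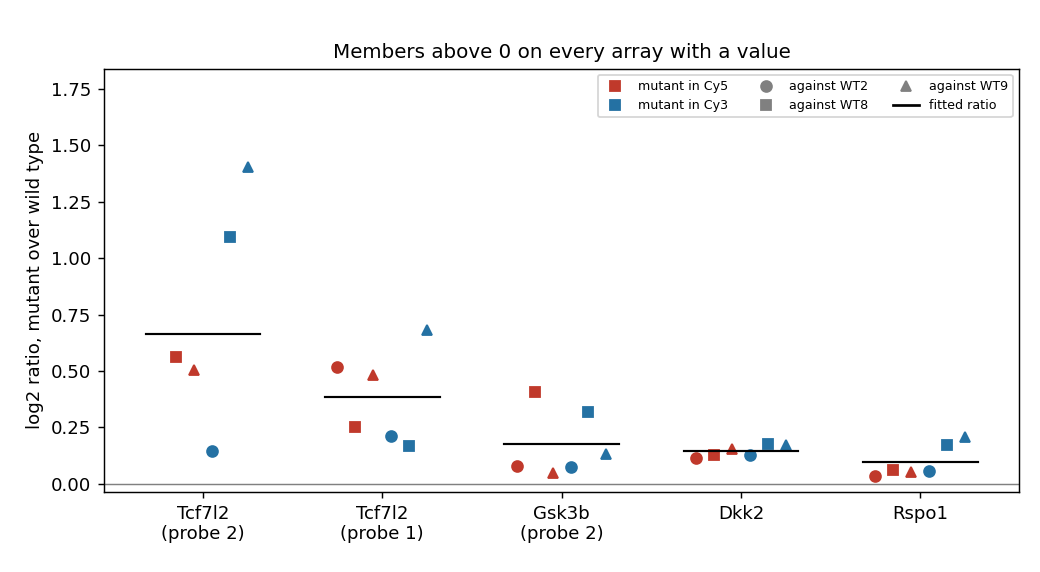
Log2 ratio of mutant over wild type (y axis) on each array for the 5 member probes that lay above 0 on every array with a value. Colour gives the dye of the mutant, shape the wild-type cortex of the array, and the line is the fitted ratio; Dkk2 spans 0.11 to 0.18, and the second Tcf7l2 probe 0.15 to 1.40.

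In all, 5 of the 58 member probes (8.62%) kept to 1 side of 0 wherever they had a value: both of Tcf7l2, and 1 each of Gsk3b, Dkk2 and Rspo1. All 5 lay above 0, where 2.44% of all probes did so, 3.12% lay below 0 on every array and 5.57% had the same sign in either direction. With arrays not centred, Rspo1, Dkk2 and the second Gsk3b probe lay above 0 on 5 of 6 arrays. Centred on Gapdh control spots, all 5 probes lay above 0 on every array with a value. That outcome was fixed in advance. The median of the control spots lay below the array median on every array, from -0.49 to -0.05, so centring on them raised every value.

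Beta-catenin itself, encoded by Ctnnb1, had 0.003, 0.40 and 0.26 in Cy5 and -0.13, 0.27 and -0.01 in Cy3. Its fitted ratio of 0.13 had an interval of -0.12 to 0.38. Of the Dishevelled genes, which carry the signal from Frizzled, Dvl1 had 0.27, -0.072 and 0.19 in Cy5 and -0.45, -0.66 and -1.30 in Cy3. All Cy3 values of Dvl1 were below all Cy5 values. The fitted ratio of Dvl1 was -0.34 (standard error 0.15), with an unadjusted p of 0.0759 and an adjusted p of 0.90 (limma). With no centring and on Gapdh control spots that ratio was -0.085 and -0.076. Dvl2 had the widest range of all members, with 0.003 and -5.93 on 2 Cy5 arrays and 1.17, -0.95 and 4.53 in Cy3. Values of Dvl2 lay far on both sides of 0. The interval of its fitted ratio ran from -4.06 to 3.05, and 3 of its 5 deposited values were those of small whole-number ratios, with no number above 10 and a match to 3 decimals of the log2 value. Such values occurred at least 2 times in 4 member probes, or 6.9%, against 6.2% of all probes. Dvl3 and the repressor-type factor Tcf7l1 had fitted ratios of 0.026 and 0.12.

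Members differed between the dye orientations no more often than other probes by either count. For the dye term 47 of all probes passed the adjusted threshold of 0.05 (0.269%), and no member was among them. At an unadjusted p under 0.05 there were 10 member probes (17.2%), against 20% of all probes. Cy5 and Cy3 arrays did not overlap for 15 member probes (25.9%), against 29.7% of all probes. In 10 of these the Cy5 arrays were the higher (17.2% of the members, 14.5% of all probes), and in 5 the lower (8.62% of the members, 15.3% of all probes). That split depended on the centring, with 9 higher and 1 lower both with no centring (12.4% and 6.9% of all probes) and on Gapdh control spots (14.1% and 9.61%).

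In Fzd5 the difference of Cy5 minus Cy3 arrays was 1.68 with an adjusted p of 0.139 (limma). The ligand gene Wnt3 had 2.53 and 0.61 on 2 Cy5 arrays and -0.64 and -1.23 on 2 Cy3 arrays. Wnt6 had 1.01 and 0.34 on 2 Cy5 arrays and -0.21, -0.21 and -0.88 in Cy3. Sfrp5 went the other way, with -0.65, -0.18 and -0.83 in Cy5 and 0.61, 0.38 and 1.48 in Cy3. In each of these 4 genes the values of the orientations lay on opposite sides of 0. Wnt3, Wnt6 and Sfrp5 were picked after their values were seen.

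**Figure D3:**
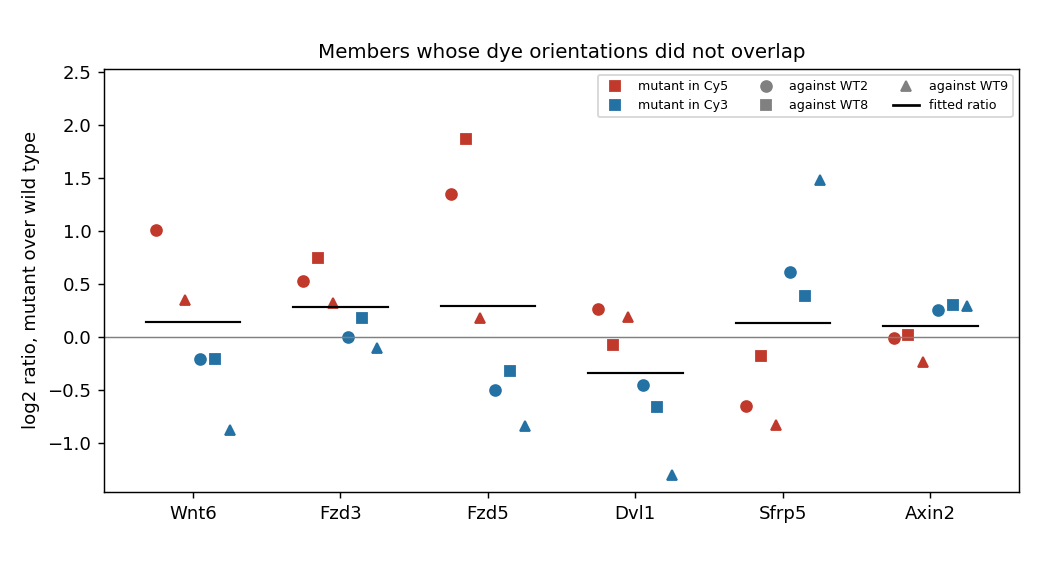
Log2 ratio of mutant over wild type (y axis) on each array for 6 members whose Cy5 and Cy3 arrays did not overlap. Colour gives the dye of the mutant, shape the wild-type cortex, and the line is the fitted ratio; the Cy5 arrays are the higher in Wnt6, Fzd3, Fzd5 and Dvl1 and the lower in Sfrp5 and Axin2.

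The wild type shared by an array pair also moved with some members. In 7 of the 47 member probes with 6 values (14.9%) both arrays against wild type 8 were the lowest, against 8.59% of all such probes, and in 5 (10.6%) both were the highest, against 11.1%. The 7 were both probes of Sfrp1 and those of Sfrp2, Tcf7l1, Fzd7, Axin1 and Wnt5b. Sfrp2, a decoy of the ventricular zone, had -0.30 and -0.15 on the wild type 8 arrays and 0.39, 0.48, 0.16 and 0.82 on those of mutants 3, 6, 1 and 7. Tcf7l1 had -0.23 and -0.17 on the wild type 8 arrays and 0.45, 0.048, -0.013 and 0.66 on the same others. For the pair of wild type 2, both arrays were the lowest for 2 member probes (4.26%, against 6.78% of all) and the highest for 3 (6.38%, against 5.76%). For the pair of wild type 9 they were the lowest for 1 (2.13%, against 5.29%) and the highest for 2 (4.26%, against 4.31%). Mutants 5 and 4 and wild type 8 cannot be told apart in this. The pattern rested on the centring, since the wild type 8 arrays had the highest medians before it: with no centring they were the lowest for 0 member probes and the highest for 22 (46.8%), against 0.30% and 56.5% of all probes. Centred on Gapdh control spots they were the lowest for 1 (2.13%) and the highest for 6 (12.8%), against 1.69% and 19.0% of all probes. With arrays centred on their medians, the 5 probes highest on the wild type 8 arrays were those of Wnt10a, Fzd1 and Ctnnb1, the first of Apc and the second of Gsk3b.

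**Figure D4:**
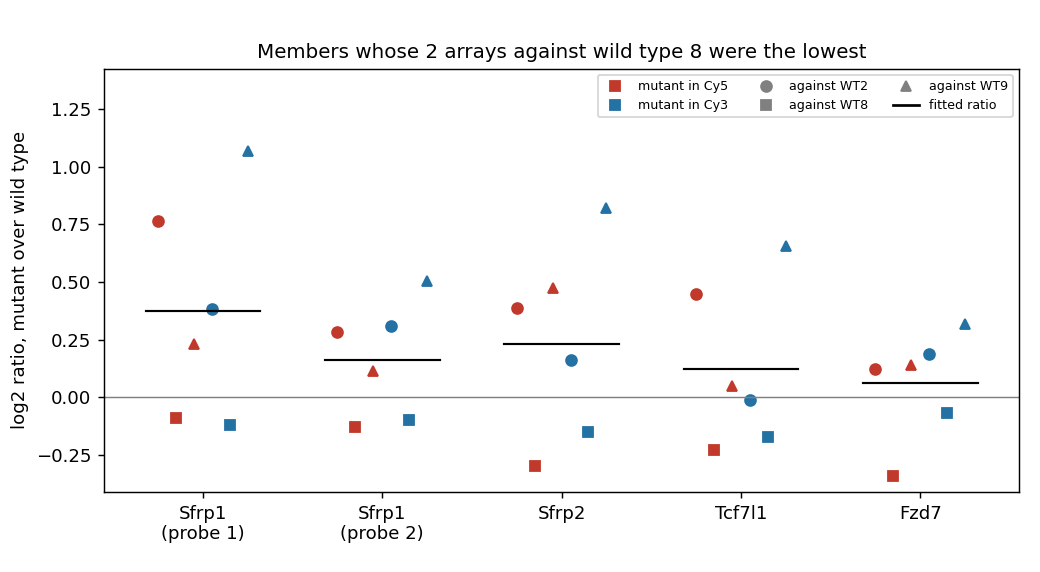
Log2 ratio of mutant over wild type (y axis) on each array for 5 of the 7 member probes whose arrays against wild type 8 (squares) were the lowest after centring on the array median. Colour gives the dye of the mutant and the line is the fitted ratio; the squares of both Sfrp1 probes lie between -0.13 and -0.090.

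Genes of the pathway outside the members were set beside them in 5 lists, with 66 genes and 73 tested probes in all. None passed the adjusted threshold in either direction. An unadjusted p under 0.05 was reached by 0 of them, against 3.93% of all probes (limma, smallest adjusted p = 0.90). Fitted ratios lay above 0 for 41 probes and below 0 for 32, where 51.3% of all probes lay above 0. Values kept the same sign on every array for 4 of the 73 probes, where 5.57% of all probes did so. These were Kremen2, Ctbp1, Celsr3 and the target gene Cd44, counted with arrays centred on their medians. On the ligand and receptor side (5 genes, 2 above and 3 below 0), the co-receptor kinase gene Ror2 and the ubiquitin ligase gene Rnf43 had fitted ratios of 0.12 and 0.054, and the co-receptor gene Ryk and Wls, which carries Wnt proteins to the surface, had -0.098 and -0.12. Of 6 other extracellular inhibitors 5 lay below 0. Kremen2, a Dickkopf receptor, was below 0 on all 6 arrays, from -0.89 to -0.021, with a fitted ratio of -0.33 (standard error 0.17). The Wnt-binding inhibitor gene Wif1 had -0.49 on 4 arrays, and Dkkl1 had 0.073.

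Of 24 other intracellular components 15 lay above and 9 below 0. The co-repressor gene Ctbp1 was below 0 on all 6 arrays, from -0.33 to -0.018, and had a fitted ratio of -0.16, while Apc2 had -0.21. Ctnnd1, a catenin of cell junctions, and the casein kinase gene Csnk1g1 had 0.17 and 0.39. In the planar polarity list (13 genes, 9 above and 4 below 0), Celsr3, a cadherin of axon guidance, lay above 0 on all 6 arrays, from 0.004 to 0.30, with a fitted ratio of 0.16. Camk2a had 0.089, Celsr2 -0.20 and Dact2 -0.082.

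The 18 listed target genes of beta-catenin had 9 above and 9 below 0 and a median of 0.025. Mycn and Gbx2 had the smallest p of those above 0, with 0.20 and 0.35. Emx2, a transcription factor of medial cortex, and Sp5, a direct Wnt target, had -0.10 and -0.11. Ccnd1, the cyclin often used as a readout of the pathway, had the highest fitted ratio of the list and was picked after its value was seen. That ratio was 0.40 (standard error 0.34), with an unadjusted p of 0.292 (limma). Its values were -0.29, 1.76 and 0.33 in Cy5 and 0.31, 0.78 and -0.51 in Cy3, on both sides of 0.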

How the data were processed

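The deposited values were read as log2 ratios of the channels of 6 two-colour arrays, with 1 value per probe and array. Per the labels, RNA was prepared by the Trizol method. How spots were scanned, corrected for background, filtered and normalized is not given in the sources used here. Neither scale nor direction is stated: Cy5 over Cy3 was taken, because Mest was lower in every mutant on that reading and on the opposite reading every sign would turn. No signal intensity was used, and the number of arrays limits the precision.

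Values were turned to mutant over wild type and centred on the median of each array's probes. The 232 Gapdh control spots were left out, and 588 values at the ceiling of 16.61 were treated as missing. Of 21766 probes, 16632 had 1 gene symbol, 139 several and 4995 none in the platform annotation. The 17476 probes with values on at least 4 arrays, 2 of them in each orientation of the dyes, went into a linear model in limma 3.58.1 (R 4.3.3) with terms for genotype and dye, the shared wild type as a random block (correlation 0.25), moderated variances and Benjamini-Hochberg adjustment at 0.05. A missing value was left out of its probe's fit and none was imputed. The procedure was tested on simulated data. Single probes also had exact sign-flip permutation tests, two-sided, which took the arrays as independent although they share wild-type cortices. A gene's value is the mean of its probes.

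All 54 member symbols matched RefSeq. Named were Mest; per role the 4 probes with the smallest p, the widest range and those with the same sign on every array; co-receptors, beta-catenin and feedback targets; genes with several probes; hem and ventricular zone ligands; and 2 probes per direction from each other pathway list. Members and lists were chosen with earlier results of these data known. Alternatives covered the block, dye term, centring, filters and arrays left out.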

Additional observations from a re-analysis of the deposited data

Results flagged for a closer look

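In 39 sets of 4 to 6 values of named members and group medians, 3 held a sample far from the others by Dixon's criterion, where chance gives about 1 in 20. That rate does not hold for these sets, since some probes, Rspo2 among them, were named for the widest range of their role. All 3 were the array of mutant 7. Porcn had -4.39 there, while the other 5 arrays lay between -0.64 and 0.028. Rspo2 had 3.94 there, and its other 3 values lay between -0.88 and -0.23. The third Apc probe had -0.68 there, and the other 5 arrays lay between 0.073 and 0.43. The cause was not tested.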

How the results depend on the processing

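No member and no probe passed the adjusted threshold for genotype under any alternative (limma). The count at an unadjusted p under 0.05 ranged from 1 to 16 of the members, and from 223 to 2761 over all that was tested. With no centring, the median fitted log2 ratio was 0.32 over member genes, 0.24 for ligands, 0.38 for receptors, 0.36 for inhibitors and 0.32 for effectors, with 0.25 over all genes, and 1 member (Fzd5) passed for the dye term. Centred on Gapdh control spots these medians were 0.32, 0.23, 0.39, 0.36 and 0.33, with 0.26 over all genes. The smallest adjusted p of a member was then 0.30 (limma). An unadjusted p under 0.05 was reached by 16 member probes and by 2761 of all 17476 probes, as ratios rose over the whole array. With the mutant in Cy3 only, the ligand median was -0.22. The member median minus that of all genes ranged from 0.024 to 0.088 over all settings. Leaving out each mutant in turn gave member medians from 0.028 to 0.092. Leaving out 1 mutant or both arrays of a wild type gave fitted ratios from 0.29 to 0.47 for the first Tcf7l2 probe, 0.53 to 0.89 for the second, and 0.19 to 0.36 for Fzd3, with unadjusted p up to 0.0777, 0.271 and 0.175. Without the block, 0 members passed and 4 had an unadjusted p under 0.05, as had 1119 of all 17476 probes (limma). No paired analysis was possible because each ratio already sets 1 mutant against 1 wild type and there is 1 group of ratios. Fits without both arrays of a wild type took the block correlation of all arrays, because it could not be estimated in them. The dye count was not available without a dye term or within 1 orientation.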

Other observations

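Pairs of Wnt genes that lie next to each other in the RefSeq order of GRCm38.p6 were set side by side. Wnt9b and Wnt3 had fitted log2 ratios of 0.58 (standard error 0.47) and 0.32 (standard error 0.43), and Wnt6 and Wnt10a had 0.14 and -0.072. Wnt9b and Wnt3 did not move together by array. Wnt9b had 1.99 for mutant 5 and 1.62 for mutant 7, and lay between -0.15 and 0.082 on the other arrays. Wnt3 had no value for mutant 5 and -1.23 for mutant 7.

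On chromosome 6, which also carries Mest, 6 members were measured. Their fitted log2 ratios were 0.10 for Lrp6, 0.12 for Tcf7l1, 0.065 for Wnt2, -0.013 for Wnt5b, -0.20 for Wnt7a and -0.28 for Wnt16.

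For 4 member probes (Wnt16, Nkd2, the second of Sfrp1 and Dvl2) at least 2 deposited values were those of a small whole-number ratio (no number above 10, matched to 3 decimals of the log2 value), as in 6.2% of all tested probes. Their median SD over arrays was 1.05, against 0.36 in the other 54 member probes.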
